A study of Homo sapiens with 8 samples.

Results

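The WNT ligands and secreted WNT inhibitors comprised 9 genes: the ligands WNT4, WNT5A, WNT7A, WNT7B and WNT10A, the secreted inhibitors SFRP1, DKK1 and DKK3, and AXIN2, an intracellular feedback gene. They were chosen by name, with earlier results of these data known. Matching to the array went through the RefSeq transcript in each probe's annotation, and all 9 were found among the 20292 genes named on the array. Where a gene had several probes, the one with the highest mean level over the 8 arrays was used. Of the 9 genes, 8 were well above background on at least 1 array, as were 15807 of all named genes, and WNT4 was not.

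The cells were MCF10A, a non-tumorigenic human breast epithelial line of basal character, with p53 intact (p53+/+) or lost (p53-/-). Both lines were exposed to doxorubicin, called adriamycin (ADR) below, an inhibitor of topoisomerase II that breaks DNA. Per the labels the dose was 0.5 µg/ml for 2 h, while the methods of the study name a higher dose for these cells. RNA was taken at 0 h from cells without ADR and at 12, 24 and 48 h after it, and each of the 8 combinations of genotype and time was measured on 1 single-colour array. The number of p53-/- clones was not given in the sources used here. With 1 array for each genotype and time no replicate error could be measured, so the treated times stood in for replicates in the tests, and p-values measured the spread between times.

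WNT ligands are secreted, lipid-modified proteins that bind Frizzled receptors. With LRP5 or LRP6 as co-receptors they stabilize beta-catenin, which then acts with TCF and LEF factors on target genes, whereas ligands such as WNT5A act largely through beta-catenin-independent routes with ROR and RYK receptors. SFRP proteins bind the ligands themselves, DKK1 blocks the LRP co-receptors, and AXIN2 is a scaffold of the beta-catenin destruction complex that the pathway itself induces.

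Levels are log2 signals relative to the 75th percentile of the same array, so that 0 is that percentile and a step of 1 is a 2-fold change. Because each probe binds with its own strength, values are compared between arrays only and never between genes. A value not well above the local background of its spot is called dim and gives only a bound.

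The data of 2 arrays stood apart. Across 19278 probes, which are not independent replicates, the array labelled p53+/+ 0 h correlated with the 4 p53-/- arrays at r = 0.9682 to 0.9917 (0.9828 at 0 h, highest at 12 h) and with the 3 treated p53+/+ arrays at 0.9207 to 0.9478. It thus lay closer to the arrays of the other genotype, treated ones included, and whether its label is right cannot be told from these values. CDKN1A, the p53-induced inhibitor of cyclin-dependent kinases, was at -1.14 on that array, at 2.54 to 2.70 on the treated p53+/+ arrays, and between -2.97 and -0.48 on the p53-/- arrays. MDM2, the p53-induced ubiquitin ligase that degrades p53, was at -1.66 there, at 1.29 to 1.76 on the treated p53+/+ arrays, and between -2.04 and -1.33 on the p53-/- arrays. Results that rest on the array labelled p53+/+ 0 h are therefore given with the p53-/- 0 h array as baseline too, and comparisons between treated genotypes use neither. The p53+/+ 48 h array lacked the signal of the spike-in RNAs, with a median log2 signal of 2.81 against 6.21 to 6.89 on the others, so values are also given without 48 h where a call depends on it.

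WNT5A was lower in treated p53+/+ than treated p53-/- cells, and WNT7A and WNT7B were higher. Taking a 2-fold difference at 12, 24 and 48 h as the rule, 2 of the 8 members above background were higher in p53+/+ cells (WNT7A and WNT7B), and 1 was lower (WNT5A). Of all 15807 genes, 6.28% were higher and 4.91% lower by the same rule. In the limma fit over all 28947 probes above background, with Benjamini-Hochberg adjustment, 2 members were called higher (WNT7A and WNT7B) and 3 lower (WNT5A, AXIN2 and DKK3), where 10.6% of probes were called higher and 7.40% lower. AXIN2 and DKK3 were above background on p53-/- arrays alone, so their calls rest on dim p53+/+ readings. Of the 5201 probes called, 58.8% were higher in p53+/+ cells, against 14.5% of calls with no scaling and 73.4% with normexp background correction, so the balance of directions over all genes depended on the scaling. The median over the 8 members of the mean treated difference was -0.04, beside 0.05 over all genes. Without 48 h, WNT10A joined the members that were higher by the 2-fold rule, which were then 3.

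**Figure D1:**
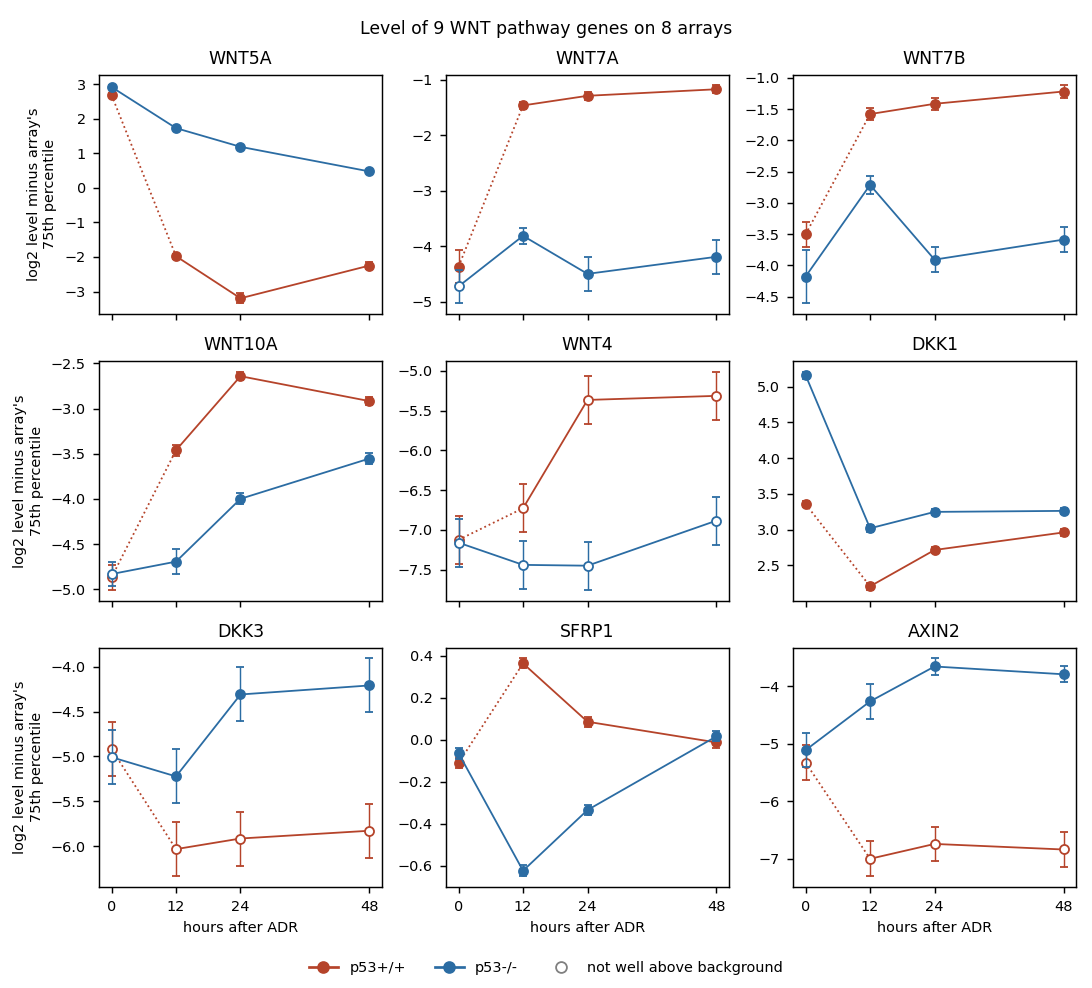
Level of each of the 9 genes (vertical axis, log2 signal minus the 75th percentile of the array) against hours after ADR, in p53+/+ cells (red) and p53-/- cells (blue). Each point is 1 array, open points are dim, bars are the error of repeated spots at that signal level and not biological error, and the dotted line leads from the array labelled p53+/+ 0 h. WNT5A starts at 2.68 and 2.92 and parts to -2.25 and 0.47 at 48 h, while WNT7A, WNT7B and WNT10A run the other way.

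The sequence just before the transcription start is shown for 3 members, in the RefSeq annotation of GRCh38.p14, 250 bases each. It is read 5′ to 3′ on the strand of the gene and ends 1 base before the start. Among the members with such a window here, these 3 had the widest range of level over the 8 arrays. No window was at hand for WNT7B, AXIN2, DKK3 or SFRP1. Capitals mark matches, on either strand, to CTTTGA (the core bound by TCF and LEF factors, TCAAAG on the other strand) or to TATAAA. WNT5A is shown at the more 5′ of 2 annotated starts, chr3:55487307-55487556 on the minus strand, WNT7A at chr3:13880072-13880321 on the minus strand, and DKK1 at chr10:52314031-52314280 on the plus strand.
WNT5A: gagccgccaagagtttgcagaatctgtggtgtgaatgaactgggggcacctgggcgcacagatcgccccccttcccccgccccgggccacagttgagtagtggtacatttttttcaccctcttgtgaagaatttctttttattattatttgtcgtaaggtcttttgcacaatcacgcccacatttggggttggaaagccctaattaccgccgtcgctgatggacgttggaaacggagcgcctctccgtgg
WNT7A: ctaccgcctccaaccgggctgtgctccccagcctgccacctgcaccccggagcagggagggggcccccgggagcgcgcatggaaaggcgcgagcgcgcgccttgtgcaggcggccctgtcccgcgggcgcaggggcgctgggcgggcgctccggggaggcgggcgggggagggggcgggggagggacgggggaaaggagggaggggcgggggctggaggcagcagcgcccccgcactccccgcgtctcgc
DKK1: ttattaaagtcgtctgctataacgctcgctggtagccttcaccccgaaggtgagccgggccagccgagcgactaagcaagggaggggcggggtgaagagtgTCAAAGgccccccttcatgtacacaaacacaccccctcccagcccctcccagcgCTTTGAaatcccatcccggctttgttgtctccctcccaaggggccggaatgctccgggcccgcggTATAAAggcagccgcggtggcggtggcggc
The DKK1 window held CTTTGA on 1 strand or the other with its first base 149 and 95 bases before the start, and TATAAA 30 bases before it. Neither the WNT5A nor the WNT7A window, nor that of WNT10A, held these motifs, the AP-1 motif TGANTCA or the p53 half-site. Over 34943 promoter windows of the same length, 11.2% held CTTTGA, 10.8% TATAAA, 6.59% TGANTCA and 5.58% the p53 half-site. The GC content was 80.4% for WNT7A, 77.6% for WNT10A, 62.8% for DKK1 and 52.8% for the WNT5A window shown, beside a median of 58.0%. These are descriptions of short windows, and sites further away were not searched.

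WNT5A, the prototype of the beta-catenin-independent ligands, was well above background on all 8 arrays. It stood at 2.68 on the array labelled p53+/+ 0 h, and the p53+/+ arrays after ADR gave -1.98 (12 h), -3.20 (24 h) and -2.25 (48 h). The p53-/- arrays gave 2.92 before ADR, then 1.73 (12 h), 1.19 (24 h) and 0.47 (48 h). The 2 arrays at 0 h were thus the highest, every treated p53+/+ array lay below every p53-/- array, and without p53 the level stepped down at each time.

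The treated genotypes differed in WNT5A by -3.71 at 12 h, -4.38 at 24 h and -2.72 at 48 h on the log2 scale, which is a level 13.0-fold, 20.9-fold and 6.60-fold lower in p53+/+ cells. The error of repeated spots on these differences was between 0.09 and 0.15. The limma estimate over the 3 times was -3.60 (SE 0.43, adjusted p = 0.00362), with an adjusted p between 0.000472 and 0.0789 over 13 settings of the fit. The call was lost only without the 24 h arrays, where the adjusted p was 0.0789.

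With the array labelled p53+/+ 0 h as baseline, p53+/+ cells changed in WNT5A by -4.66, -5.88 and -4.93 at 12, 24 and 48 h, and with the p53-/- 0 h array by -4.90, -6.11 and -5.17. The change without p53 was -1.19, -1.73 and -2.44, that is 2.28-fold, 3.32-fold and 5.44-fold lower. It was lower by the 2-fold rule in both genotypes, but without scaling between arrays the p53-/- change at 12 h was -0.84, under 2-fold. The extra change in p53+/+ cells did not pass the limma interaction test (adjusted p = 0.118), which rests on 1 array of 0 h in each genotype, and its adjusted p lay between 0.0469 and 0.395 over 13 settings that keep both 0 h arrays.

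Some fibroblast marker genes moved with WNT5A. The matrix proteoglycan gene DCN read 2.09 to 2.37 on the treated p53+/+ arrays and 5.70 to 6.07 on the other 5, and LUM, another of this family, was dim on the 3 treated p53+/+ arrays and between -2.64 and -1.11 elsewhere. The summed signal of 5 fibroblast markers was 2.11 to 2.39 on treated p53+/+ arrays, 5.71 to 6.07 on treated p53-/- arrays, and 5.77 and 5.87 at 0 h. Of those 5 markers, DCN was above background on all 8 arrays and COL1A2 on none. The sum was almost wholly the signal of the DCN probe, and as with WNT5A it was lowest on the 3 treated p53+/+ arrays. CDH1, the epithelial cadherin, ran the other way, at 1.42 to 2.10 on treated p53+/+ arrays and -3.55 to -0.94 on the other 5. Of 7 markers of basal mammary epithelium, 6 were above background on all 8 arrays. The summed signal of the 7 was 8.76 to 9.21 on treated p53+/+ arrays and 7.79 to 8.10 on treated p53-/- arrays. Most of this sum was the signal of the LAMB3 and KRT6A probes, and TP63 was dim on 5 arrays. Between treated genotypes the limma estimates were 3.98 for CDH1, 2.06 for KRT5, 1.79 for KRT17 and 1.51 for KRT14. They were 1.05 for LAMB3, 0.26 for KRT6A and -0.28 for TP63. Before ADR this basal sum already differed by label, with 8.24 for p53+/+ and 7.43 for p53-/-. A gap in the same direction thus preceded ADR, and the basal sum was higher after ADR in both genotypes. Other markers went various ways between treated genotypes. The limma estimates were -3.54 for PECAM1, which was dim on the treated p53+/+ arrays, -0.07 for VWF and 0.22 for CDH5, all endothelial. They were -1.07 for CD14, -0.01 for PTPRC and 0.05 for CD3E (leukocyte) and 0.58 for ESR1 (luminal). The part of these markers in the WNT results was not tested. In a bulk sample a change in the kinds of cells cannot be told apart from a change of RNA within each cell.

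**Figure D2:**
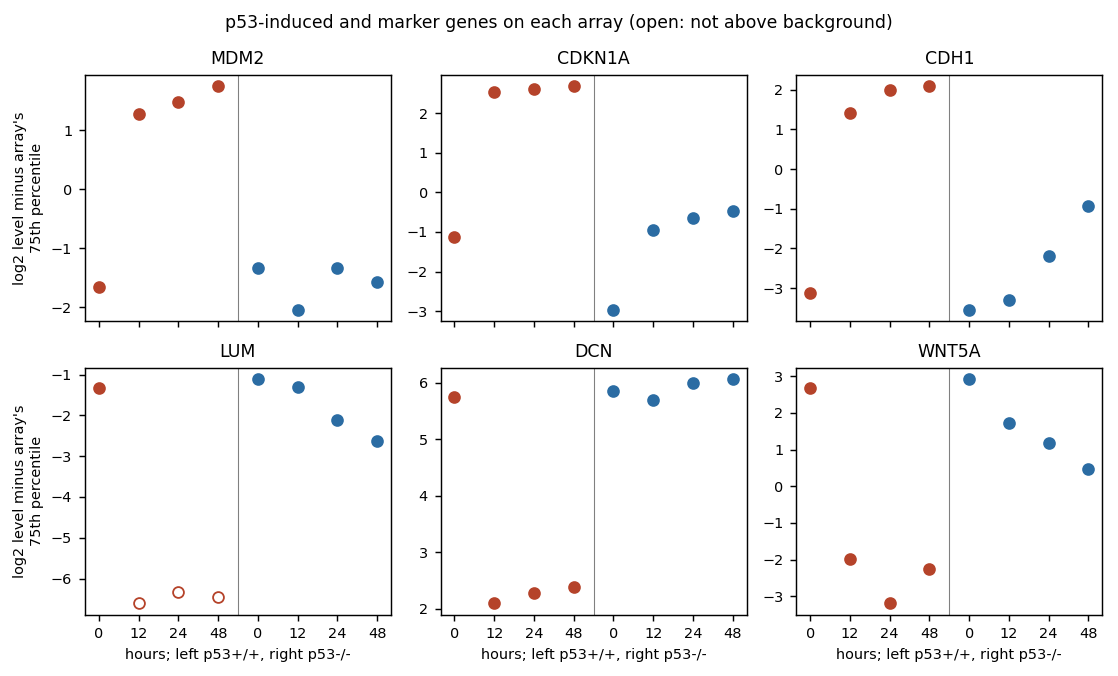
Level (vertical axis, log2 signal minus the 75th percentile of the array) of MDM2, CDKN1A, CDH1, LUM, DCN and WNT5A on each of the 8 arrays, p53+/+ left in red and p53-/- right in blue, by hours after ADR on the horizontal axis. Open points are dim. The array labelled p53+/+ 0 h lies near the p53-/- arrays in MDM2 (-1.66), CDH1 (-3.13), LUM (-1.32) and DCN (5.75), and WNT5A is likewise high there (2.68).

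Among 11825 genes above background on all 8 arrays, the levels most like those of WNT5A over the 8 arrays were ZEB1 (r = 0.9933), a repressor of CDH1 transcription, REEP6 (r = 0.9916) and PLEKHO1 (r = 0.9908). These correlations share the same arrays, are ranked from many genes and are given as a description only. ZEB1 was at 0.78 and 1.14 on the arrays at 0 h, at -1.48, -1.87 and -1.32 on the treated p53+/+ arrays, and at 0.63, 0.07 and -0.17 on the treated p53-/- arrays.

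WNT7A, a ligand that can signal through beta-catenin and is made by many epithelia, had the opposite pattern. It began at -4.36 on the array labelled p53+/+ 0 h, and p53+/+ cells reached -1.46 by 12 h, -1.29 by 24 h and -1.17 by 48 h. Without p53 it was dim at 0 h (-4.72) and stayed low at the 3 treated times (-3.81, -4.49 and -4.19). The 3 treated p53+/+ arrays stood together above the other 5. The treated difference was 2.35, 3.20 and 3.01, or 5.08-fold, 9.21-fold and 8.08-fold higher in p53+/+ cells, and limma gave 2.85 (SE 0.23, adjusted p = 0.000998, from 8.36e-05 to 0.0487 over 12 settings, all of them called). Its change from the array labelled p53+/+ 0 h was 2.90, 3.07 and 3.19. From the p53-/- 0 h array, where it was dim, the change had bounds of at least 3.26, 3.43 and 3.55. Without p53 the change had bounds of at least 0.91, 0.22 and 0.53. None reached 2-fold, but lower bounds cannot show that a change stayed under 2-fold. The limma interaction missed the threshold (adjusted p = 0.058, from 0.0111 to 0.315 over 12 settings).

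WNT7B, the closest relative of WNT7A, was above background on all 8 arrays with the probe used. Its p53+/+ values were -3.50 (labelled 0 h), -1.58, -1.41 and -1.22 in order of time. The p53-/- values were -4.18, -2.71, -3.91 and -3.59, so that the 12 h array was the highest of that genotype and still below every treated p53+/+ array. The treated difference was 1.13, 2.49 and 2.37, which is 2.19-fold, 5.63-fold and 5.17-fold, and limma gave 2.00 (SE 0.33, adjusted p = 0.0107, from 0.00213 to 0.85 over 13 settings). The limma call was lost without the 24 h arrays (adjusted p = 0.143), without the 48 h arrays (adjusted p = 0.0781) and with the mean of all probes (0.11, adjusted p = 0.85). The 12 h difference fell under 2-fold with quantile (0.94), median (0.87) or no scaling (0.68) and with normexp (0.91), each of which ends the call at all 3 times. The probes disagreed: the other two for this gene were dim on 7 of 8 arrays and above background on the p53-/- 12 h array alone, and with the mean of all probes the 12 h difference was -0.89. Treated p53+/+ values lay above the array labelled p53+/+ 0 h by 1.92, 2.09 and 2.29 and by 2.60, 2.76 and 2.96 above the p53-/- 0 h array, while the p53-/- change of 1.47, 0.27 and 0.59 passed 2-fold at 12 h alone.

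WNT10A, a beta-catenin ligand of skin and its appendages, was dim at 0 h in both genotypes (-4.87 and -4.83). Treated p53+/+ values were -3.46, -2.64 and -2.92, and treated p53-/- values were -4.69, -4.00 and -3.55, so WNT10A was above background on all 6 treated arrays. The treated genotypes differed by 1.23, 1.36 and 0.63, past 2-fold at 12 and 24 h and not at 48 h, where the sign turned (-0.22) without scaling between arrays. limma gave 1.07 (SE 0.36, adjusted p = 0.0842, from 0.0153 to 0.362 over 12 settings), which missed the threshold but was called with time as a block (adjusted p = 0.0444). The p53+/+ change had bounds of at least 1.41, 2.23 and 1.95 against the array labelled p53+/+ 0 h, and of 1.37, 2.19 and 1.91 against the p53-/- 0 h array. With normexp background correction the 12 h change from the array labelled p53+/+ 0 h was 0.74, which ends the 2-fold call at all times. The p53-/- bounds were at least 0.14, 0.83 and 1.28, so a 2-fold change was shown at 48 h alone. The p53-/- reading at 48 h (-3.55) was close to the p53+/+ reading at 12 h (-3.46).

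WNT4, a ligand of the mammary gland and reproductive tract, was dim on all 8 arrays. Its readings were -7.12, -6.73, -5.36 and -5.31 with p53 and lay between -7.45 and -6.88 without it. No fold is given, and it entered no test.

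**Figure D3:**
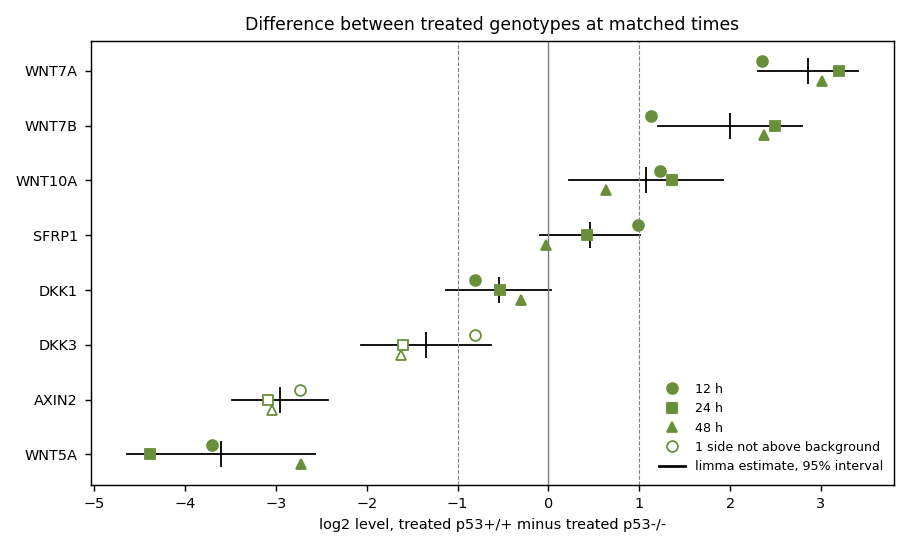
Difference between treated genotypes (horizontal axis, log2 level in p53+/+ minus p53-/- cells) for the 8 members above background, at 12 h (circles), 24 h (squares) and 48 h (triangles), with open points where 1 side was dim. Black lines are the limma estimate and its 95% interval over the 3 times, and dashed lines mark 2-fold. WNT5A lies furthest to the left, at -4.38 at 24 h, and WNT7A furthest to the right, at 3.20.

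Of the secreted inhibitors, DKK1 was lower after ADR in p53-/- cells, and no inhibitor passed the 2-fold rule between treated genotypes with the main scaling. DKK1, which blocks LRP5 and LRP6 and is itself induced by beta-catenin, was at 3.36 on the array labelled p53+/+ 0 h, and treated p53+/+ values were 2.21, 2.72 and 2.96. The p53-/- values were 5.16 before ADR and 3.02, 3.25 and 3.26 afterwards. The p53-/- 0 h array stood alone at the top, and the difference at 0 h (array labelled p53+/+ minus p53-/-) was -1.80, DKK1 being the one member past 2-fold between these arrays (3.75% of all genes were lower in the array labelled p53+/+ 0 h and 2.87% higher).

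The DKK1 change in p53-/- cells was -2.14, -1.91 and -1.90, which met the 2-fold rule at all 3 times. With p53 intact the change depended on the baseline. It was -1.15, -0.64 and -0.40 from the array labelled p53+/+ 0 h, past 2-fold at 12 h alone, and -2.95, -2.44 and -2.20 from the p53-/- 0 h array. Between treated genotypes DKK1 differed by -0.81, -0.53 and -0.30, and limma gave -0.55 (SE 0.24, adjusted p = 0.166, from 0.0121 to 0.454 over 13 settings). With no scaling DKK1 was 2-fold lower in treated p53+/+ cells at all 3 times, and limma called it (-1.15, adjusted p = 0.0121). It was also called by limma with normexp background correction (-0.63, adjusted p = 0.0421), so the DKK1 result depended on the processing.

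DKK3, a divergent member of the Dickkopf family, was dim on all 4 p53+/+ arrays, at -4.92, -6.03, -5.92 and -5.83. Without p53 it was dim at 0 h (-5.01) and above background, at -5.22, -4.31 and -4.21, at the treated times. limma on the measured values gave -1.35 (SE 0.30, adjusted p = 0.0269, from 0.00833 to 0.827 over 12 settings). Since p53+/+ values were dim, the bounds on the level in treated p53-/- cells were 1.04-fold higher over the 3 times, none at 12 h, 1.14-fold at 24 h and 1.33-fold at 48 h. On the log2 scale, p53+/+ minus p53-/-, the bounds were -0.19 at 24 h and -0.42 at 48 h. Both were smaller than the spot error of 0.43 on each difference, so these bounds show no DKK3 difference beyond that error. The limma call was lost without the 24 h arrays (adjusted p = 0.236), without the 48 h arrays (adjusted p = 0.114) and with the mean of both probes (adjusted p = 0.0885), and with normexp background correction the estimate was 0.0482 (adjusted p = 0.827).

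SFRP1, a secreted decoy of WNT ligands, was measured in 10 spots and stayed within a narrow range. Its p53+/+ values, in order of time, were -0.11, 0.36, 0.08 and -0.01, and its p53-/- values were -0.07, -0.62, -0.34 and 0.02. The treated genotypes stood furthest apart at 12 h, by 0.99, and came to 0.42 at 24 h and -0.03 at 48 h, with a spot error of 0.035. limma gave 0.46 (SE 0.23, 95% interval -0.09 to 1.01, adjusted p = 0.215, from 0.0939 to 0.709 over 13 settings), which missed the threshold with an interval that reached just past 2-fold. Without scaling between arrays the SFRP1 differences were 0.53, -0.06 and -0.89, so its sign depended on the scaling.

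AXIN2, a direct target of beta-catenin and TCF, was dim on all 4 p53+/+ arrays, at -5.33, -7.00, -6.74 and -6.84. All 4 p53-/- readings were above background, from -5.11 before ADR to -4.26, -3.66 and -3.79 afterwards. limma on the measured values gave -2.95 between treated genotypes (SE 0.22, adjusted p = 0.000808, from 0.000286 to 0.0451 over 12 settings, all of them called). Because one side was dim, the size has only a bound: the level in treated p53-/- cells was at least 1.66-fold higher over the 3 times, and at least 1.42-fold, 1.80-fold and 1.78-fold at 12, 24 and 48 h. None of these bounds reached 2-fold. The p53-/- change after ADR was 0.85, 1.45 and 1.32, past 2-fold at 24 and 48 h.

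AXIN2 was also the one member called by the limma interaction (-2.73, SE 0.44, adjusted p = 0.0415, from 0.0151 to 0.334 over 12 settings), a test that called 0.746% of probes lower and 0.940% higher. Of its calls over all probes 55.7% were higher, against 14% without scaling and 66.5% with normexp. The limma call was lost with time as a block (adjusted p = 0.0735), without any of the 3 times, with no filter, with normexp and with the mean of all probes. The estimate uses dim values on the 4 p53+/+ arrays and rests on the array labelled p53+/+ 0 h. With the p53-/- 0 h array as baseline of both genotypes the test becomes the comparison of treated genotypes itself. The second AXIN2 probe was dim on 7 of 8 arrays.

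**Figure D4:**
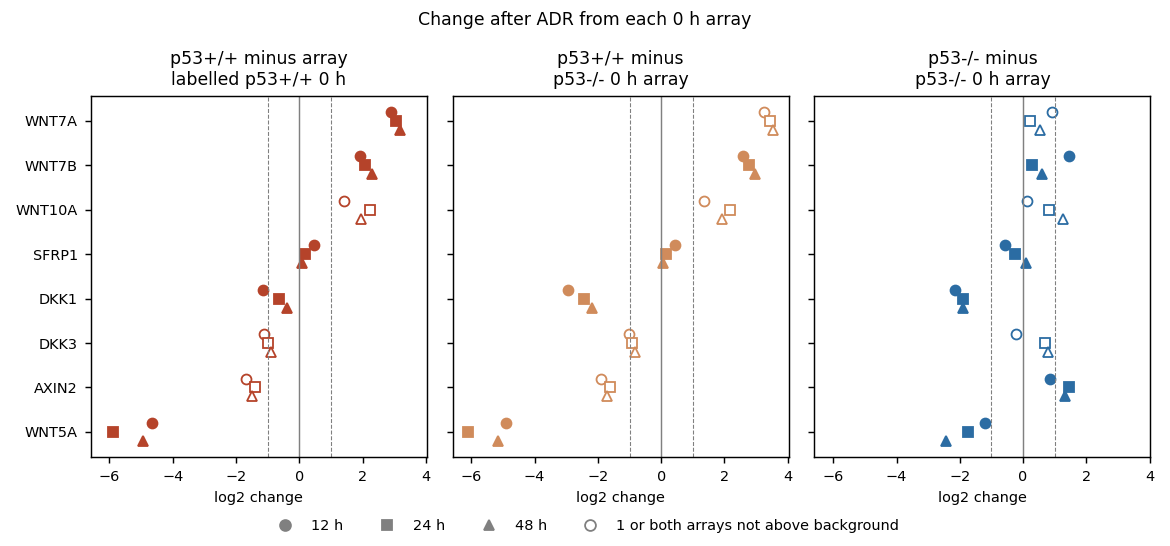
Log2 change after ADR (horizontal axis) of the 8 members above background, in p53+/+ cells from the array labelled p53+/+ 0 h (left), in p53+/+ cells from the p53-/- 0 h array (middle) and in p53-/- cells from their own 0 h array (right). Circles, squares and triangles are 12, 24 and 48 h, open points had 1 or both arrays dim, and dashed lines mark 2-fold. WNT5A, WNT7A, WNT7B and WNT10A keep their side under both baselines, while DKK1 at 24 h moves from -0.64 to -2.44.

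By the 2-fold rule at all 3 times, 3 members were higher after ADR in p53+/+ cells (WNT7A, WNT7B and WNT10A) and 1 was lower (WNT5A), when 8.07% of all genes were higher and 5.48% lower. With the p53-/- 0 h array as baseline 3 were higher, among 8.05% of genes, and 2 were lower (WNT5A and DKK1), among 5.82%. Without p53 no member met the rule as higher, with 2.15% of genes higher. The same 2 members, WNT5A and DKK1, were lower, with 1.95% of genes lower. The comparisons within p53+/+ cells and between treated genotypes share the treated p53+/+ arrays, so their counts are not separate evidence.

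The rest of the pathway was taken as a list of 77 genes, also chosen with earlier results known. Of the list, 76 were named on the array and 55 were above background on at least 1 array. Of these 55, 4 were at least 2-fold higher in treated p53+/+ than treated p53-/- cells at all 3 times and 9 were lower, beside the shares of 6.28% and 4.91% over all genes. limma called 5 higher and 9 lower, where it called 10.6% of all probes higher and 7.40% lower. The median of their mean treated difference was 0.05, the same as over all genes. Several of the 2-fold calls lay close to the threshold. The smallest differences were -1.04 for FZD10, -1.06 for TCF7, -1.07 for FZD9, -1.09 for SP5 and 1.11 for LGR4. FZD10 was dim on the p53+/+ 12 h array and TCF7L1 on those at 24 and 48 h, so their differences there are bounds. Counts for this list are given with the main scaling only.

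Receptors held most of the lower genes. Of 19 measured receptors, 5 Frizzled genes (FZD1, FZD4, FZD7, FZD9 and FZD10) were lower at all 3 times and 1 receptor was higher, LGR4, which binds R-spondins. FZD7 differed by -1.48, -2.54 and -2.45 at 12, 24 and 48 h, with a limma estimate of -2.16 (SE 0.25, adjusted p = 0.00343). FZD1 differed by -1.62, -1.81 and -1.99, with a limma estimate of -1.80 (SE 0.20, adjusted p = 0.00293). LGR4 differed by 1.27, 1.11 and 1.18. FZD10 missed the limma threshold (adjusted p = 0.0578), so limma called 4 receptors lower. FZD5 was higher after ADR without p53, by 1.0022, 1.20 and 1.24 at 12, 24 and 48 h. The 12 h value only just passed 2-fold. The rise rests on the p53-/- 0 h array, where FZD5 read -3.04, against -2.04, -1.84 and -1.80 on the treated p53-/- arrays. On the array labelled p53+/+ 0 h it read -1.76, slightly above those treated values. FZD9 was lower in p53+/+ cells after ADR (-1.26, -1.47 and -1.54 from the array labelled p53+/+ 0 h) and higher in p53-/- cells (1.33, 1.53 and 1.29), and it too was called by the limma interaction (-2.81, adjusted p = 0.0233). Its p53-/- 0 h level of -3.74 was close to its treated p53+/+ levels (-3.49, -3.71 and -3.77), so with that array as baseline FZD9 was not lower in p53+/+ cells. The interaction estimate also holds the gap to the array labelled p53+/+ 0 h, where FZD9 read -2.23. Between treated genotypes its limma estimate was -1.30. Without the 24 h or the 48 h arrays the interaction called no probe at all.

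Among the 17 transducers, TCF7, TCF7L1 and LEF1, which are DNA-binding partners of beta-catenin, were lower in treated p53+/+ cells by the 2-fold rule, and CTNNBIP1, an inhibitor of the binding of beta-catenin to TCF factors, was higher. LEF1 differed by -1.74, -2.47 and -1.70, and its limma estimate was -1.97 (SE 0.38, adjusted p = 0.0176), while TCF7 missed the limma threshold (adjusted p = 0.0596). Another transducer, PYGO1, which binds beta-catenin's partner BCL9, was higher after ADR in p53+/+ cells. It rose by 2.27, 1.53 and 1.92 over the array labelled p53+/+ 0 h, where it read -4.54. On the p53-/- 0 h array PYGO1 was dim and lower still (-5.78). Between treated genotypes its limma estimate was 1.51 (SE 0.31). TCF7 was higher after ADR in p53-/- cells, by 2.41, 3.43 and 2.92. CTNNBIP1 differed by 2.14, 1.67 and 1.31 between treated genotypes, and its limma call missed the threshold (adjusted p = 0.0584).

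Of the 6 measured target and feedback genes, SP5 and RNF43 had treated differences of opposite sign. SP5, a transcription factor induced by beta-catenin, differed by -1.09, -1.94 and -2.86 between treated genotypes and was higher after ADR in p53-/- cells, by 1.32, 2.51 and 2.79. RNF43, a ubiquitin ligase that removes Frizzled receptors from the cell surface, differed by 2.63, 1.52 and 1.50. Among the 7 other ligands measured, WNT5B, a close relative of WNT5A, was dim on the p53-/- arrays at 12 and 24 h and differed by at least 2.05, at least 1.61 and 2.03, opposite in sign to WNT5A, with a limma estimate of 1.90 (SE 0.25, adjusted p = 0.00476). Of 3 other secreted inhibitors and 3 genes of ligand secretion and R-spondins above background, none passed the rule between genotypes. SOST, an inhibitor that binds LRP5 and LRP6, was lower after ADR without p53, by changes of -1.50, -1.39 and -1.38, those at 12 and 24 h being bounds.

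**Figure D5:**
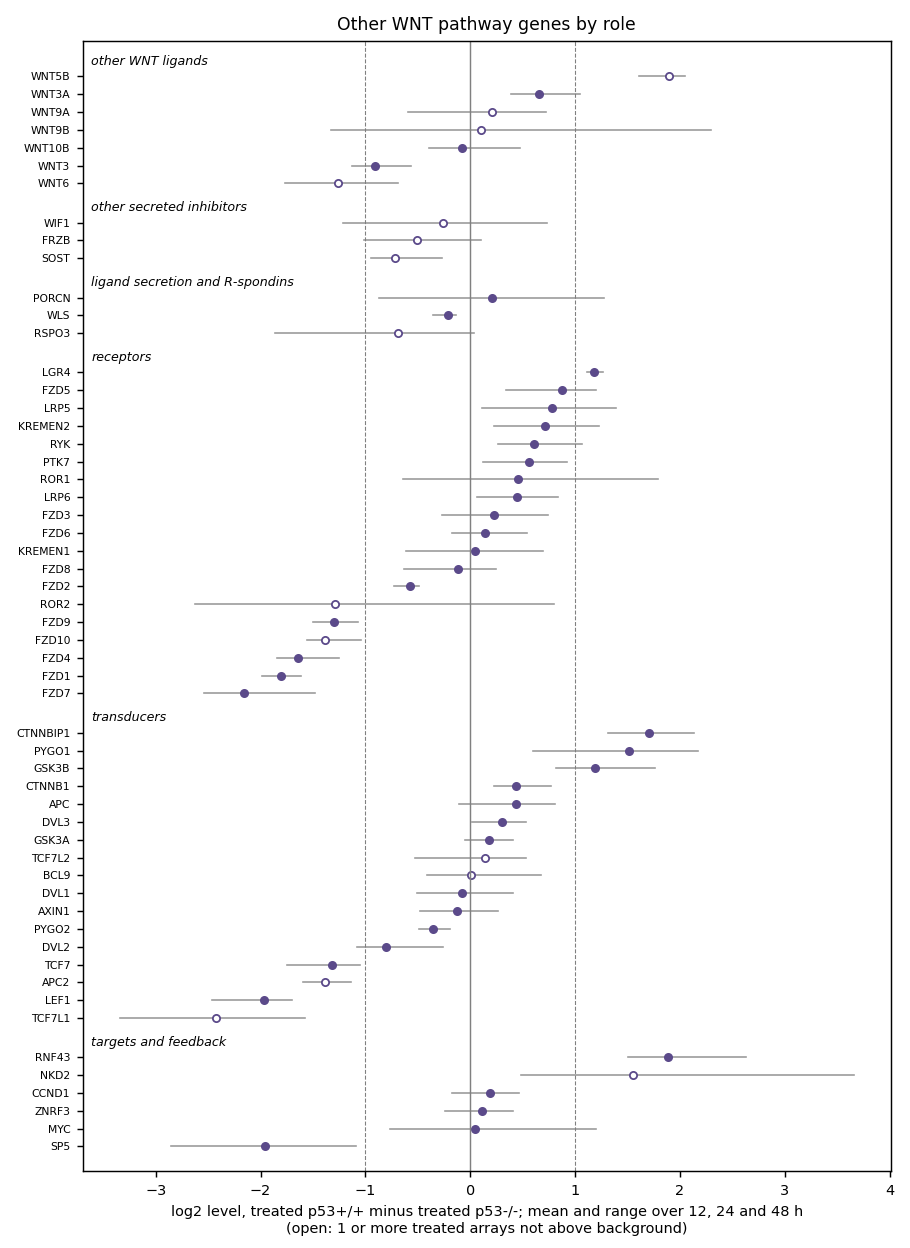
Treated difference (horizontal axis, log2 level in p53+/+ minus p53-/- cells) of the 55 other pathway genes above background, grouped by role and sorted within each group. Points are means and lines the range over 12, 24 and 48 h of measured values, open where 1 or more treated arrays were dim, and dashed lines mark 2-fold. The Frizzled genes FZD7 (mean -2.16) and FZD1 (-1.80) lie to the left and LGR4 (1.18) to the right within the receptors.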

How the data were processed

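Total RNA of MCF10A cells was labelled with Cy3 and hybridised to single-colour Agilent human 8 x 60 K arrays. The deposited values were spot intensities, which the authors took with Agilent Feature Extraction 10.7.3.1 (per the file headers: background subtracted and detrended within each array, build hg19, no scaling between arrays). The deposited table of the series equals these intensities for all 503808 values within 0.0051. One check of the labels is not reported here. All arrays lay on 1 slide, with the genotypes in separate columns of it, so slide column and genotype cannot be told apart.

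Of 62976 spots per array, controls and 233 to 370 spots with outlier marks were left out, and none was saturated. Log2 intensity minus that of the array's 75th percentile was then averaged across repeated spots of each probe. The percentile was 661 to 1199 intensity units and 49.8% to 62.9% of probes were well above background. RefSeq transcripts named 27223 of 42405 probes (64.2%) through the GRCh38.p14 table. A dim value was set to the higher of its own level and the lowest level above background on its array. Sizes against it are bounds. Some dim readings lay above that lowest level, such as -4.38 against -4.50 on the p53+/+ 24 h array, so the bounds are approximate. Intensities are not counts, so the number of arrays limits the precision.

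limma 3.58.1 (R 4.3.3) was fitted to 28947 probes above background on at least 1 array in 4 groups, genotype by treated or not, with 4 residual degrees of freedom, and tested on simulated data. A p was adjusted by the Benjamini-Hochberg method over all probes, with a threshold of 0.05. The members and lists were chosen with earlier results of these data known. The text names all 9 members, those other pathway genes that differed or changed at least 2-fold at all 3 times and the 3 genes most like WNT5A. Alternatives were quantile and median scaling, no scaling, normexp background correction, filters on dim probes, the mean of all probes, a 3-fold rule, the other baseline, each time left out and time as a block. The deposited table in place of the scanner files was also run, and since the values are equal it repeats the main result. Leaving out a time under the 2-fold rule was chosen after seeing the data.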

Additional observations from a re-analysis of the deposited data

Results flagged for a closer look

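AXIN2 had readings of opposite sign in the genotypes, but those of p53+/+ cells were all dim, the 0 h array included, so opposite movement is not shown. The mean reading changed by -1.53 from the array labelled p53+/+ 0 h and by 1.20 from the p53-/- 0 h array, where all values were above background, a difference of -2.73. The limma interaction is that same -2.73 (adjusted p = 0.0415, from 0.0151 to 0.334 over 12 settings, 5 of them called). Those 5 include the main fit and its repeat on the deposited table, and the others were quantile, median and no scaling. With time as a block the interaction was not called (adjusted p = 0.0735).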

How the results depend on the processing

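Calls between treated genotypes held for WNT7A and AXIN2 in all 12 settings of the limma fit that tested them. The filter for probes above background on all 8 arrays left both out, so it could not test their calls. WNT5A passed that filter and lost its call only without the 24 h arrays. WNT7B and DKK3 lost theirs in several settings, the mean of all probes among them, and the causes were not tested. AXIN2 and DKK3 were above background on p53-/- arrays alone. Their calls rest on dim p53+/+ readings in every setting, so the repeated AXIN2 call adds no support. The members 2-fold higher in treated p53+/+ cells came to 1 in place of 2: WNT7A with quantile, median or no scaling, normexp, the mean of all probes or a 3-fold rule, and WNT7B with probes above background on all 8 arrays, and those lower to 2 in place of 1 with no scaling or no filter. After ADR in p53+/+ cells, the members higher came to 1 in place of 3 with probes above background on all arrays and to 2 with normexp, without WNT10A, and those lower to 2 with no filter or the p53-/- 0 h baseline. In p53-/- cells, the members higher came to 1 with no scaling or without 12 h, and those lower to 1 (DKK1) with no scaling, and to 1 with a 3-fold rule. WNT7B at 12 h reversed to -0.89 with the mean of all probes, and the DKK3 estimate reversed to 0.0482 with normexp.

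Of all probes, limma called 5201 between treated genotypes, 9393 with no scaling, 9939 with normexp, 12536 with no filter, and 2670, 292 and 2571 without the 12, 24 or 48 h arrays. Members called higher came to 1 above background on all arrays, with the mean of all probes, and without the 24 or 48 h arrays, and those called lower to 1 above background on all arrays or without the 24 h arrays. The interaction called 488 probes, 1296 with no scaling, 1250 with normexp, 60 with time as a block, and 42, 0 and 0 without the 12, 24 or 48 h arrays (4919, 3063 and 5274 at an unadjusted p under 0.05). With the p53-/- 0 h baseline it called 5201, with 2 members higher and 3 lower, by construction the treated comparison. Members it called lower came to 2 with no scaling and to 0 above background on all arrays, with no filter, with the mean of all probes, with time as a block or without any of the 3 times, and those higher to 1 with normexp or the mean of all probes. No scaling moved the median of all genes by -0.76 to 0.52, against -0.04 to 0.16. The labels give no replicate numbers, so samples could be paired by time alone: with time as a block, the comparison of treated genotypes kept its member calls, added WNT10A, and the interaction lost AXIN2. Low signals limit WNT4, DKK3 and AXIN2 to bounds or less.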
